A study of Mus musculus with 6 samples.

Results

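The 40 genes described here are expressed by dividing cells, and they were sorted by the phase in which they act: 16 genes of S phase, 18 genes of mitosis, the 4 genes Mki67, Top2a, Cdk1 and Birc5 that mark cycling cells, and Hmgb2 and Stmn1, which are high in dividing cells without belonging to 1 phase. They were taken by name from the 22547 genes of a single-cell count table of mouse mammary tumours at 4 stages, and all 40 were present. A cell counted as cycling when at least 2 of the 4 marking genes had a UMI (a unique molecular identifier, the tag that counts 1 captured RNA molecule). Each stage was 1 library: Primary (labelled age 8 to 10 weeks), Dormant (10 to 12 weeks), Long-term dormant (32 to 34 weeks, called LT_DT in the labels) and Recurrent (20 to 22 weeks). All came from mammary gland of FVB mice (FVB.rGH-Luc-GFP) that carried transplanted tumours, with genotypes labelled MMTV-Wnt1/iFGRR2, MMTV-Wnt1/iFGRR1, MMTV-Wnt1/iFGRR4 and MMTV-Wnt1/iFGRR3 in that order; what the last digit stands for is not given. The MMTV promoter drives Wnt1 in mammary epithelium, and the B/B homodimerizer was injected until the tumours grew without it. By the treatment protocol, dormant residues were left by 14 days of the FGFR inhibitor NVP-BGJ398 followed by 14 days without drug, and recurrent tumours grew out in mice left untreated afterwards. A Primary tumour is read here as one not given the inhibitor, from its stage name alone, and the labels do not spell out how Long-term dormant tissue was kept to its age. Age and stage cannot be told apart, and with 1 library per stage no difference has a replicate check, so no test was made and every interval given is a 95% interval for counting error only.

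Dividing cells copy their DNA in S phase and separate the copies in mitosis, and the RNAs for each task rise in turn. S-phase genes such as the Mcm helicase subunits, Pcna, the sliding clamp of the replication fork, and Rrm2, a subunit of ribonucleotide reductase, are known targets of E2F factors that are released when RB is phosphorylated. Mitosis genes include cyclin B (Ccnb1, Ccnb2), the kinases Plk1, Aurka and Aurkb, and Cdc20 and Ube2c, which act with the anaphase-promoting complex. Such genes are known targets of the DREAM and MuvB complexes. These complexes bind a promoter element called CHR, often beside CCAAT boxes bound by NF-Y. The genes that define a cycling cell here lie on chromosome 7 (Mki67, chr7:135689784-135716361, minus strand), chromosome 11 (Top2a, chr11:98992943-99024189, minus, and Birc5, chr11:117849251-117855743, plus) and chromosome 10 (Cdk1, chr10:69335146-69352938, minus) of mm10, by the GENCODE M21 annotation.

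The promoters are shown because motifs that the lists did not use fell differently in the 2 phase groups. Of the 40 genes, 33 matched the RefSeq promoter table (GRCm38.p6, 250 bases before to 50 after a start site), with 36 promoters; Ccna2, Aurkb, Tpx2, Mcm4, Gins2, Ccne2 and Stmn1 were not matched. The CHR letters TTTGAA, searched on both strands, stood in 12 of 16 mitosis promoters (75.0%), in 1 of 15 S-phase promoters (6.67%, that of Mcm2) and in 17.9% of the 32851 promoters in the table. An E2F site, searched on both strands as TTTGGCGC, TTTCGCGC, TTTCCCGC or TTTGCCGC, stood in 6 of 15 S-phase promoters (40%), in 0 of 16 mitosis promoters and in 2.26% of all promoters. CCAAT on either strand was common to both groups, in 87.5% of mitosis and 73.3% of S-phase promoters against 37.4% of all. A match describes the letters only. The 4 mitosis genes with the most UMIs whose promoters hold CHR are printed 5′ to 3′ on the strand of the gene, from 190 bases before to 30 after the start, with CHR and CCAAT letters of either strand in capitals (opposite-strand matches read TTCAAA and ATTGG): Cenpa, the centromeric histone (chr5:30666696-30666915, plus strand), Ube2c, the ubiquitin-conjugating enzyme of the anaphase-promoting complex (chr2:164769739-164769958, plus), Ccnb2 (chr9:70421525-70421744, minus) and Cdc20, an activator of that complex (chr4:118437314-118437533, minus).
Cenpa: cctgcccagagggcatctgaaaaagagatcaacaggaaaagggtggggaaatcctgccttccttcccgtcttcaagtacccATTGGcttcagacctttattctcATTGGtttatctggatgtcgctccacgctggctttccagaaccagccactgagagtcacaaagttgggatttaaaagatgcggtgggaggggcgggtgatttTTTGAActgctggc
Ube2c: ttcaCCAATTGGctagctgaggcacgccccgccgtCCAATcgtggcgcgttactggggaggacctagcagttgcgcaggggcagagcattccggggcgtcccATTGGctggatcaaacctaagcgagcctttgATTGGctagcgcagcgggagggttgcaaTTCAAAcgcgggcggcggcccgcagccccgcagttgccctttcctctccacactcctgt
Ccnb2: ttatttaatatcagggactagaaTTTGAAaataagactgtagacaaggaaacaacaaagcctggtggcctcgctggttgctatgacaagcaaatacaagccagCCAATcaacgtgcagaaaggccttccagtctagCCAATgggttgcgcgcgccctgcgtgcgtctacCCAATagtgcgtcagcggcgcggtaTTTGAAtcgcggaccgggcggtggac
Cdc20: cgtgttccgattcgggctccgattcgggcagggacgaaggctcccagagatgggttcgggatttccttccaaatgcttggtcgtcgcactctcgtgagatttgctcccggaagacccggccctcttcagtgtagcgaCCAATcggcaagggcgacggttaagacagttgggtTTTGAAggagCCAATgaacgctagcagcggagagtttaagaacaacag

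In these windows the CHR match of Ube2c lay 29 bases before the start and that of Cdc20 18 bases before it, whereas Cenpa held it 16 bases after the start and Ccnb2 both 167 bases before and 4 bases after it. Cenpa held 2 CCAAT matches, Ube2c 5, Ccnb2 3 and Cdc20 2. The S-phase counterparts, printed in the same way with only E2F letters in capitals, are the helicase subunits Mcm7 (chr5:138171854-138172073, minus), Mcm6 (chr1:128359676-128359895, minus) and Mcm5 (chr8:75109319-75109538, plus), and Uhrf1, which guides maintenance methylation at replication forks (chr17:56304123-56304342, plus).
Mcm7: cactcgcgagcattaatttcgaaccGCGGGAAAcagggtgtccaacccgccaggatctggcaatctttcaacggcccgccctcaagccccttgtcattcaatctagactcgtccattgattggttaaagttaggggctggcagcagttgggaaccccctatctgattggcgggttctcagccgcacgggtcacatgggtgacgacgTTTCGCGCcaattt
Mcm6: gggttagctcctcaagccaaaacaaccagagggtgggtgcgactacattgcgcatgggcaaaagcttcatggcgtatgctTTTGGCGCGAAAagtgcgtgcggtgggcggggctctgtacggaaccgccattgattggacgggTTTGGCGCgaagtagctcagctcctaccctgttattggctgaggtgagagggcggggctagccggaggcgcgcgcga
Mcm5: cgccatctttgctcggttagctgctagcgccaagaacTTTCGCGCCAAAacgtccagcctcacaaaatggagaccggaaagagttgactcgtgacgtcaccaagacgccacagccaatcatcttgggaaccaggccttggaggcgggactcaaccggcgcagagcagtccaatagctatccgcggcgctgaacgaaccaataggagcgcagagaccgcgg
Uhrf1: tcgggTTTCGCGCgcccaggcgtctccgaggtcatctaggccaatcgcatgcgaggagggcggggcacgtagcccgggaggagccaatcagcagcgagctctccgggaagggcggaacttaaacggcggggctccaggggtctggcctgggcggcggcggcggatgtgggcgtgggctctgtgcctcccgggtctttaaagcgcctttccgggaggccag

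Mcm6 held 3 E2F matches, of which a pair overlapped on opposite strands, as did the pair in Mcm5; Mcm7 held 2 and Uhrf1 1. Mcm7 and Uhrf1 each have a further promoter in the table without an E2F match.

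The libraries held 3541 to 6083 cells, of which 3276 to 5867 were used, with median depths of 2738.5 UMIs (Dormant), 3163 (Long-term dormant), 5671 (Primary) and 7502.5 (Recurrent). A doublet caller marked 53, 0, 137 and 57 cells of Primary, Dormant, Long-term dormant and Recurrent, so no doublet was removed from the Dormant library. Of 19470 barcodes, 194 occurred in more than 1 library. Cells were clustered without the cell cycle genes and named from marker lists. The epithelial-like class held 2106 Primary, 306 Dormant, 162 Long-term dormant and 2659 Recurrent cells; the T-like class 657, 1287, 276 and 404; the macrophage- or monocyte-like class (macrophages for short) 1261, 208, 1246 and 1269. The eGFP transcript was detected in most epithelial-like cells of 3 libraries (99.7% in Primary, 85.6% in Dormant, 98.9% in Recurrent). In the Long-term dormant library 3 of 162 such cells had it (1.85%), so the last class is epithelium almost without the transcript the other 3 libraries show. All 13 epithelial markers were detected in this class in each library.

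By value, the cycling share was highest in the Primary library among epithelial-like cells and in the Long-term dormant library among macrophages. Because a deeper cell shows more genes, each cell was first thinned to 1500 UMIs. In epithelial-like cells 69 of 2059 Primary cells cycled (3.35%, interval 2.62 to 4.22), 3 of 297 Dormant cells (1.01%, 0.209 to 2.92), 3 of 151 Long-term dormant cells (1.99%, 0.412 to 5.70) and 31 of 2620 Recurrent cells (1.18%, 0.805 to 1.68). Against Primary, the Recurrent share was 2.81-fold lower (log2 -1.49, -2.16 to -0.87) and the Dormant share 2.86-fold lower (-1.52, -4.04 to -0.12). The Dormant value rests on 3 cycling cells: a second random draw of the thinning had 1 of 297 (0.337%) and a log2 ratio of -2.66, thinning to 2500 UMIs gave -2.78, and no thinning gave -0.75. The order of Dormant and Long-term dormant was not determined, since their log2 ratio was 0.98 with an interval of -1.92 to 3.88 and -1.34 without thinning. After thinning, the Long-term dormant interval also held the Primary share, so the order of Primary and Long-term dormant was not determined there. Without thinning the shares were 11.8%, 6.86%, 2.47% and 8.09%, at class medians of 5753, 6935.5, 4389 and 9493 UMIs, and the Recurrent to Primary ratio shrank to -0.55 on the log2 scale. The cells of the 2 libraries lay mostly in different clusters (4 in Primary, 0 in Recurrent), and within a cluster the thinned shares had overlapping intervals: 1 of 67 Primary and 29 of 2257 Recurrent cells in cluster 0 (1.49%, 0.0378 to 8.04, and 1.28%, 0.862 to 1.84), and 53 of 1266 and 1 of 32 in cluster 4 (4.19%, 3.15 to 5.44, and 3.13%, 0.0791 to 16.2). Without thinning, cluster 0 had 4.29% in Primary and 8.84% in Recurrent, at medians of 5958.5 and 9757 UMIs.

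Among T-like cells the share was 9 of 414 in Primary (2.17%, 0.999 to 4.09), 14 of 1077 in Dormant (1.30%, 0.712 to 2.17), 12 of 111 in Long-term dormant (10.8%, 5.71 to 18.1) and 24 of 344 in Recurrent (6.98%, 4.52 to 10.2). In this draw the Long-term dormant and Recurrent intervals did not overlap those of the other 2 libraries. In a second random draw the Primary share was 14 of 414 (3.38%, 1.86 to 5.61), which overlaps the Recurrent interval. Against Dormant the share was 8.36-fold higher in Long-term dormant (3.51 to 19.4) and 5.29-fold higher in Recurrent (2.67 to 11.2). Against Primary it was 3.1-fold higher in Recurrent (log2 1.63, 0.53 to 2.97). The Recurrent to Primary log2 ratio was 1.02 (0.036 to 2.11) in the second draw and 1.01 when thinned to 2500 UMIs. The Dormant to Primary ratio was -0.77 on the log2 scale, with an interval (-2.05 to 0.65) that spans 0. Thinning left out 165 of the 276 Long-term dormant and 243 of the 657 Primary T-like cells. The Primary cells left out included 115 of 155 in cluster 9 and 89 of 179 in cluster 14. Over all cells the shares were 4.41%, 3.26%, 9.06% and 13.9%, so the Long-term dormant share was higher with thinning than without. Long-term dormant T-like cells that cycled without thinning had a median of 2520 UMIs and the others 1300. The part of this depth difference in the thinned share was not tested.

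In macrophage- or monocyte-like cells 21 of 1252 Primary cells cycled (1.68%, 1.04 to 2.55) and 0 of 176 Dormant cells (0%, 0 to 2.07). In Long-term dormant 48 of 974 cycled (4.93%, 3.66 to 6.48), and in Recurrent 12 of 1249 (0.961%, 0.497 to 1.67). The Long-term dormant share was higher than the Dormant share, with a lower limit of 2.26-fold by the exact interval of their ratio. Over all cells the shares were 8.17%, 2.40%, 10.4% and 5.12%. With cell cycle genes kept in clustering, 84 Long-term dormant cells fell in a cluster of 92 led by Ube2c, Clec4b1, Retnla and Cd209a. That cluster was named macrophage- or monocyte-like, but Cd209a is on the dendritic marker list. Whether some of the cycling Long-term dormant cells of this class are dendritic was not tested. As a measure of free RNA, neutrophil-like cells, which do not divide, gave 0 of 52, 14, 13 and 40 cells without thinning, but the 52 Primary cells had a median of only 691.5 UMIs. Fibroblast-like cells, the class with the lowest share at greater depth, gave 0 of 275 in the Dormant library after thinning (upper limit 1.33%). Without thinning they gave 0 of 300 (upper limit 1.22%, median 4644 UMIs). The thinned Dormant epithelial share lay under that limit, and the unthinned share of 6.86% above it.

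**Figure D1:**
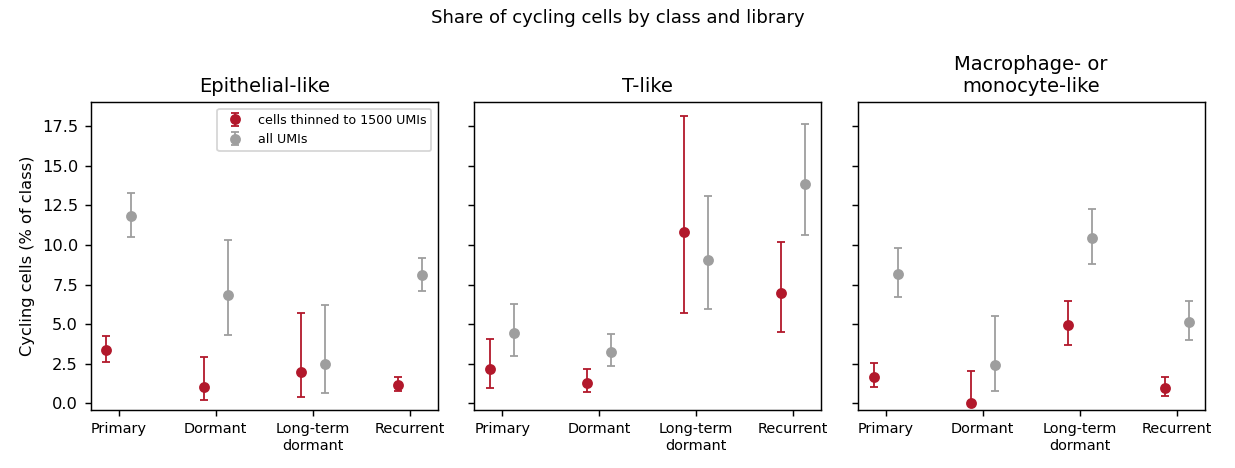
Share of cycling cells (y axis, percent of the class) in each library (x axis) for the 3 classes; red points are cells thinned to 1500 UMIs, grey points all UMIs, and bars 95% exact binomial intervals for counting error. Epithelial-like cells are highest in Primary, though after thinning the Long-term dormant interval spans the Primary point. T-like cells are highest in Long-term dormant and Recurrent, and macrophage- or monocyte-like cells in Long-term dormant.

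The cycling compartment was made of different cells at each stage. Of 105 cycling Primary cells (thinned) 65.7% were epithelial-like and 20.0% macrophage- or monocyte-like. Of 35 cycling Dormant cells 40% were T-like, 28.6% plasma-like and 8.57% epithelial-like. Among the 140 cycling cells of the Long-term dormant library 34.3% were macrophage- or monocyte-like, 21.4% dendritic-like, 20.7% fibroblast-like and 2.14% epithelial-like. Epithelial-like cells were again the largest class among the 70 cycling Recurrent cells (44.3%), followed by T-like cells (34.3%). These shares follow the class sizes of each library as well as the cycling rate within each class.

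**Figure D2:**
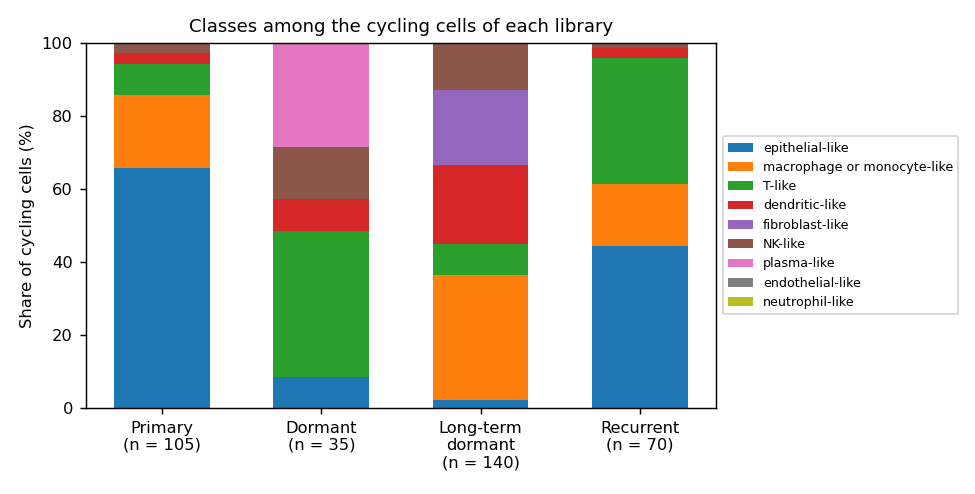
Classes among the cycling cells of each library after thinning to 1500 UMIs (y axis, percent of that library's cycling cells; n under each bar). Epithelial-like cells make up 65.7% of the cycling cells in Primary and 2.14% in Long-term dormant.

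In epithelial-like cells the Dormant library differed from the Primary library in its mitosis genes and hardly in its S-phase genes. The summed mitosis level was 445 CPM (UMIs scaled to 1000000 of the class) in Primary, 190 in Dormant, 79.5 in the Long-term dormant library and 199 in Recurrent; the summed S-phase level was 405, 396, 238 and 258 CPM. A gene was counted as lower or higher when the 2 libraries differed by at least 2-fold with at least 20 UMIs over both. All 40 genes had those UMIs in Dormant against Primary, and 16 of them were lower and 0 higher, where 9.98% of the 11655 genes measured were lower and 13% higher. Mitosis genes made up 13 of the 16 (13 of 18, median log2 -1.27), and the S-phase group had 0 of 16 in either direction (median 0.01); the median over all genes was -0.06.

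Cenpa had 72.3 CPM in Primary, 35.1 in Dormant, 12.2 in the Long-term dormant library and 35.4 in Recurrent. Ube2c had 47.3, 18.8, 3.67 and 30.7 CPM, and Cdc20 had 47.5, 20.0, 3.67 and 14.4 CPM in the same order. All 3 were highest in Primary and lowest in Long-term dormant, where Ube2c and Cdc20 rest on 3 UMIs each. The widest Dormant to Primary gaps were those of Aurkb, the kinase of the chromosomal passenger complex (15.6 to 2.96 CPM, log2 -2.31, -3.63 to -1.39), and Plk1, the polo kinase that drives mitotic entry (11 to 2.59 CPM, log2 -1.99, -3.42 to -1.01). In Recurrent cells Aurkb stood at 6.26 and Plk1 at 3.88 CPM.

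The S-phase genes kept nearer to the Primary level. Pcna had 89.6, 124, 63.6 and 62.3 CPM in Primary, Dormant, Long-term dormant and Recurrent. It was thus highest in Dormant (log2 0.47 over Primary, 0.29 to 0.64). Mcm7 had 34.5, 25.5, 31.8 and 16.6 CPM. Rrm2 had 53.4, 31.0, 17.1 and 40.3 CPM, and Gins2, part of the replicative helicase, had 27.3, 14.8, 9.78 and 18.9 CPM; these 2 were the S-phase genes furthest below Primary in Dormant cells, at -0.77 and -0.87 on the log2 scale. Between Primary and Dormant the marking genes went with mitosis. Mki67 had 35.9, 10.3, 15.9 and 13.7 CPM, and Cdk1, the mitotic cyclin-dependent kinase, 47.7, 10.7, 9.78 and 19.6 CPM. Top2a, which untangles the copied DNA, had 45.3, 18.8, 18.3 and 14.9 CPM, and Birc5 (survivin) 62.0, 31.4, 9.78 and 40.2 CPM. Mki67, Top2a and Cdk1 were at least 2-fold lower in Dormant than in Primary, and Birc5 just missed at -0.97. From Dormant to Long-term dormant the marking genes did not go with mitosis. Only Birc5 was at least 2-fold lower there, and the median log2 was -0.04 against -1.31 for mitosis genes.

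**Figure D3:**
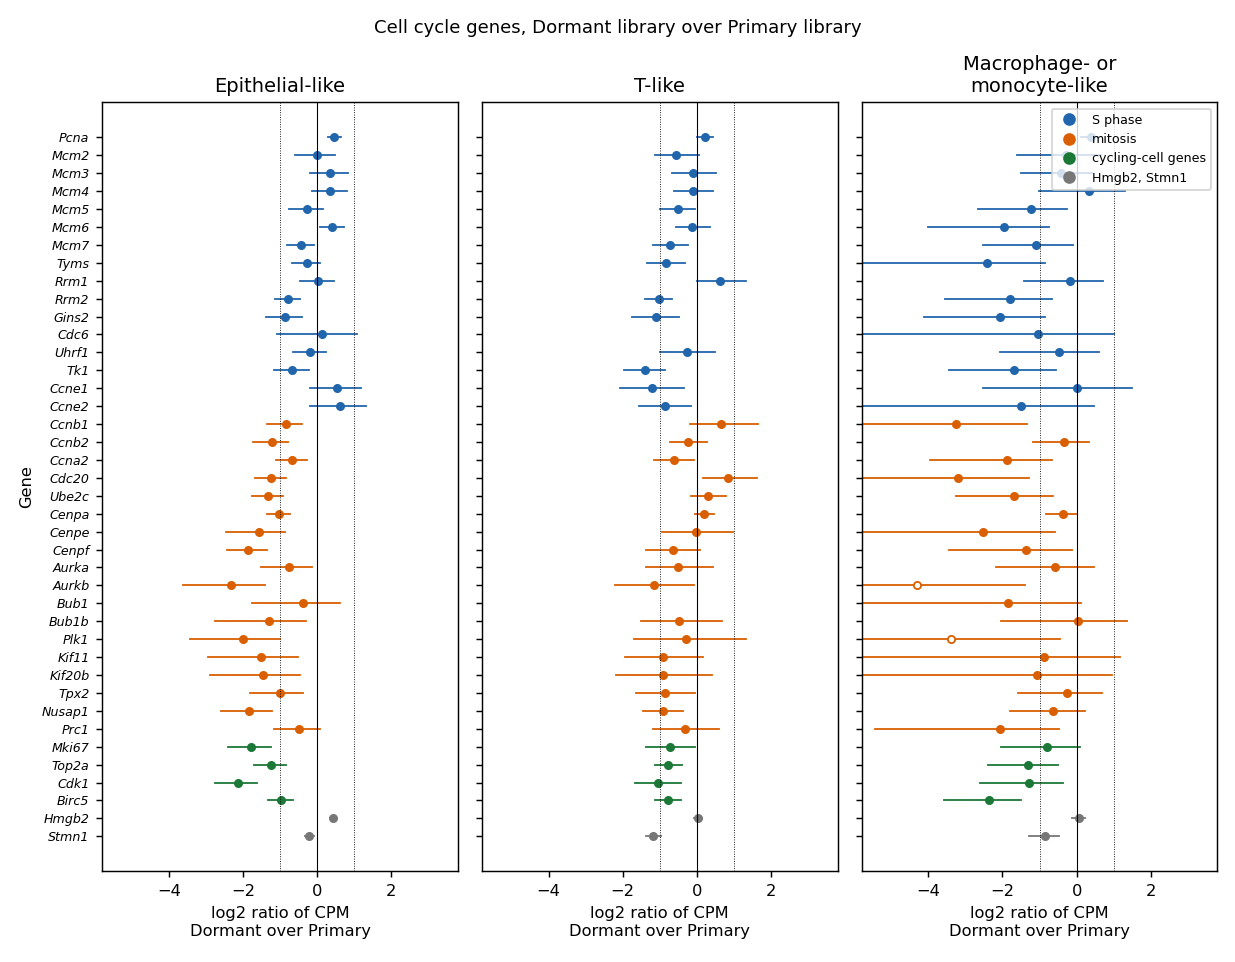
Log2 ratio of CPM, Dormant over Primary (x axis), for the 40 genes with enough UMIs (y axis) in each class, coloured by group; lines are 95% exact conditional intervals cut at the panel edge, dotted lines mark 2-fold, and open points are genes at 0 UMIs in 1 library, whose position depends on the prior count. Mitosis genes lie left of 0 in epithelial-like cells while S-phase genes lie around it, and both groups lie left in macrophage- or monocyte-like cells.

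Over the whole class, Recurrent epithelial-like cells had mitosis levels near those of Dormant cells and below those of Primary cells. Against Primary, 19 of 40 genes were lower and 0 higher (12.1% of 12178 genes lower and 5.28% higher), with 12 of 18 mitosis and 3 of 16 S-phase genes among them. Against Dormant, 5 of 40 were lower and 0 higher (18% of all genes lower and 10.2% higher); no mitosis gene was among the 5, and 4 were S-phase genes. Long-term dormant against Dormant had 16 lower and 0 higher of the 32 genes that passed (11.5% of all genes lower and 7.17% higher), but with 65 mitosis UMIs in all the class is thin, and only 1 of these genes had its whole interval beyond 2-fold. These 4 comparisons share libraries with each other and are set side by side as they stand.

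The epithelial-like class was made of different clusters in each library, and the lower Dormant level was not seen within the 1 cluster that Primary and Dormant share with at least 10 cells each. Primary cells lay mostly in clusters 4 and 13 (led by Aqp5 and by Krt17), Dormant cells in cluster 18 (Acta2, Tagln), Recurrent cells in cluster 0 (Csn2, Lalba). Cluster 11 (Krt7, Krt14, Krt79, Ly6d) held 247 Primary, 84 Dormant and 185 Recurrent cells, and there the mitosis level was 126 CPM in Primary, 325 in Dormant and 47.8 in Recurrent, and the S-phase level 155, 532 and 126 CPM. With cluster 11 alone compared, 0 genes were lower and 24 higher in Dormant, so the direction turns. Of the Dormant mitosis UMIs in cluster 11, 41.4% came from 1 cell; its cycling share was 17.9% (15 of 84) without thinning, at a median of 9057.5 UMIs against 3932 in Primary, and 1.22% (1 of 82) with thinning. Between Primary and Recurrent the direction differed by cluster. Cluster 4 had 572 CPM of mitosis genes in Primary and 537 in Recurrent. The Recurrent value came from 41 cells, with 44.9% of its mitosis UMIs from 1 cell, so closeness in cluster 4 was not determined. In cluster 0 Recurrent was higher, with 32.3 CPM (18.1 to 53.3) in 70 Primary cells and 209 CPM (203 to 214) in 2275 Recurrent cells. Cluster 19 was also higher in Recurrent (67.2 and 108 CPM), with intervals that just overlap. Like cluster 11, cluster 13 was lower in Recurrent (334 CPM in Primary and 0 UMIs in 16 Recurrent cells).

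RNA of T cells was seen across the Dormant epithelial-like class, at a higher level in its cycling cells. The 9 T cell markers summed to 378 CPM in this class, with 646 CPM in its cycling cells (unthinned) and 319 CPM in its other cells. In the other 3 libraries they summed to 19.7 to 35.5 CPM over the class. Of the 21 cycling Dormant cells 10 had a UMI of at least 2 of Cd3d, Cd3e, Cd3g and Trac, against 51 of 285 other cells (17.9%). In Primary these cells were 1.61% of the cycling cells and in Recurrent 2.33%. Without them, 21 genes instead of 16 were lower in Dormant than in Primary and 0 higher, and the cycling share ratio was -1.69 on the log2 scale. Cycling Dormant epithelial-like cells had a median of 21470 UMIs and the others 6473; the part of these differences in the result was not tested.

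**Figure D4:**
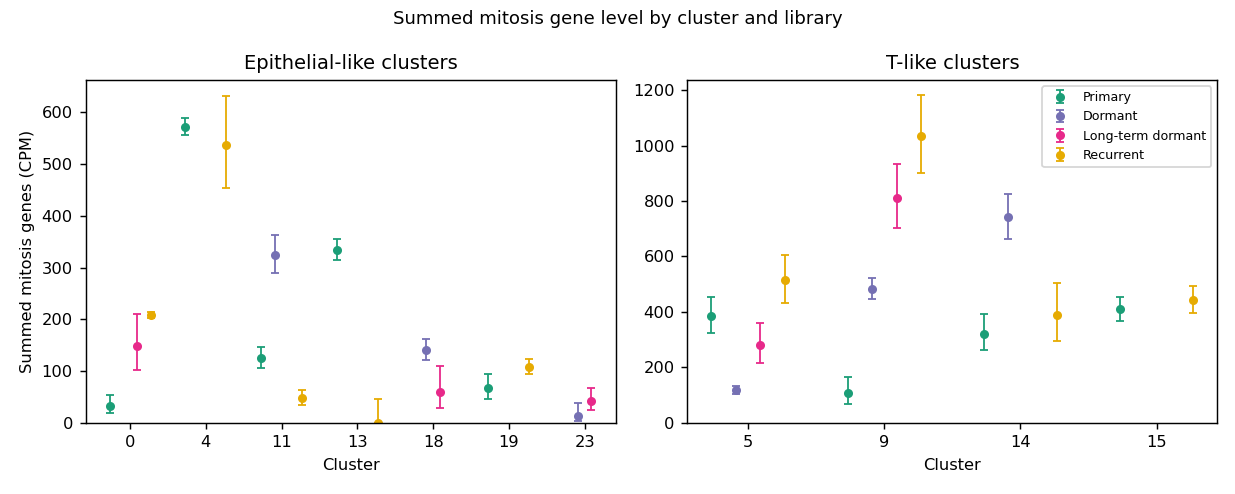
Summed level of the 18 mitosis genes (y axis, CPM) by cluster (x axis) and library (colour), for clusters with at least 10 cells of that library; bars are 95% exact Poisson intervals. In epithelial-like cluster 11 the Dormant point (325 CPM) lies above Primary (126) and Recurrent (47.8), and T-like cluster 9 reaches 1034 CPM in Recurrent.

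In T-like cells both phase groups were highest in Long-term dormant and Recurrent. The summed S-phase level was 582 CPM in Primary, 463 in Dormant, 766 in the Long-term dormant library and 667 in Recurrent, and the summed mitosis level was 352, 323, 544 and 540 CPM. Against Dormant, 20 of the 36 genes that passed were higher in Long-term dormant and 0 lower (13.7% of 8096 genes higher and 7.4% lower), and 19 of 38 were higher in Recurrent and 0 lower (9.16% of 8481 genes higher and 7.96% lower). All 4 marking genes were among those higher in both comparisons. The 13 epithelial markers summed to 180, 67.4, 81.6 and 292 CPM in the T-like cells of the 4 libraries in the same order. The eGFP transcript was seen in 6.47% of Primary, 0.805% of Dormant and 14.8% of Recurrent cells of cluster 5. In cluster 15 it was seen in 7.07% of Primary and 16.0% of Recurrent cells. The part of these cells in the Recurrent result was not tested. Against Primary, 5 of 38 were higher in Recurrent and 0 lower (3.03% of all genes higher and 2.57% lower), and 7 of 38 were lower in Dormant and 0 higher (8.85% of all genes lower and 9.49% higher).

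Top2a had 67.2 CPM in Primary, 39.4 in Dormant, 174 in the Long-term dormant library and 116 in Recurrent. Mki67 had 20.6, 12.5, 79.5 and 46.2 CPM, Cdk1 26.5, 12.8, 35.6 and 35.4 CPM, and Birc5 70.7, 41.3, 103 and 130 CPM. Dormant was the lowest library for each of the 4. Among S-phase genes Rrm2 had 72.5, 35.7, 77.4 and 106 CPM, and Tk1, the thymidine kinase of S phase, had 38.3, 14.4, 20.9 and 42.6 CPM; Pcna (153, 177, 237 and 169 CPM) and Mcm6 (37.7, 34.9, 39.8 and 32.5 CPM) moved less than 2-fold in all 4 comparisons. Ccne1, the cyclin of the G1 to S step, had 14.7, 6.40, 8.37 and 15.2 CPM. Of the mitosis genes, Cenpa stayed between 99.6 and 126 CPM, Ube2c had 32.4, 40, 96.3 and 48.4 CPM, and Aurkb 10.0, 4.53, 10.5 and 22.4 CPM. Ccnb2 had 30.1, 25.6, 35.6 and 48.4 CPM, and the kinesin Kif20b 6.48, 3.47, 8.37 and 13.7 CPM.

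Within the T-like class the high values sat in named clusters. Without thinning, cluster 9, led by Tnfrsf4, Ctla4, Icos and Ikzf2, had no cycling cell among 155 in Primary (median 1004 UMIs). The unthinned share was 5.96% in Dormant (median 2159 UMIs), 15.6% in Long-term dormant and 20.5% in Recurrent. After thinning, 0 of 40 Primary cells cycled (0 to 8.81%) and 8 of 263 Dormant cells (1.32 to 5.91%). In Long-term dormant 7 of 50 cycled (5.82 to 26.7%), and in Recurrent 8 of 42 (8.6 to 34.1%). The thinned Primary interval overlapped each of the others, so the place of Primary in this order was not determined. The mitosis level of cluster 9 was 108, 483, 812 and 1034 CPM in Primary, Dormant, Long-term dormant and Recurrent. Cluster 5, led by Cd8b1 and Satb1, had mitosis levels of 386, 117, 281 and 514 CPM, with Dormant lowest. In cluster 14 (Pdcd1, Lag3, Ccl5) the order was 322 CPM in Primary, 741 in Dormant and 390 in Recurrent, and 52.6% of the Dormant UMIs came from 1 cell. Cluster 15, led by Gzmc, Gzmb, Klra5 and Xcl1 and with the gamma-delta receptor gene Trdc, was filled only in Primary and Recurrent (409 and 443 CPM). None of its top 10 genes was on the T marker list. At resolution 0.5 a cluster led by Gzma, Xcl1, Gzmb and Gzmc, also with Trdc, was named NK-like. After thinning, cluster 15 held 6 of the 9 cycling T-like cells of Primary and 8 of the 24 of Recurrent. Giving the shared clusters equal weight turned the Dormant to Primary count to 1 lower and 7 higher, and raised the Recurrent to Primary count to 18 higher.

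In macrophage- or monocyte-like cells both phase groups were highest in Long-term dormant; S-phase genes were lowest in Dormant, while the mitosis levels of Dormant and Recurrent did not differ beyond counting error. The S-phase level was 294 CPM in Primary, 225 in Dormant, 477 in the Long-term dormant library and 301 in Recurrent, and the mitosis level was 257, 122, 391 and 127 CPM. In Dormant against Primary 23 of 40 genes were lower and 0 higher (9.83% of 9518 genes lower and 11.4% higher), 9 of 16 in S phase and 11 of 18 in mitosis. In Long-term dormant against Dormant 34 of 39 were higher and 0 lower (12.8% of all genes higher and 6.78% lower), and in Recurrent against Dormant 12 of 37 were higher and 0 lower (9.92% of all genes higher and 10.5% lower). Aurkb and Plk1 had no UMI in the Dormant class; with the 3-count floor of that library in their place the counts were 22 lower, 33 higher and 11 higher, and the median of the 40 genes in Dormant against Primary was -1.08 instead of -1.16. The class lay in different clusters: 149 of 208 Dormant and 1238 of 1246 Long-term dormant cells were in cluster 2, while 651 and 554 of the 1261 Primary cells were in clusters 3 and 8. In cluster 2 the mitosis levels of Primary (197 CPM, 147 to 257, 55 cells) and Dormant (153 CPM, 124 to 187) had overlapping intervals, and the S-phase levels were 494 and 229 CPM. The 9 stress genes of tissue handling summed to 4666, 5999, 2867 and 4763 CPM in the class, and its own 15 markers to 29294, 17598, 11710 and 28726 CPM, in Primary, Dormant, Long-term dormant and Recurrent; their part in the results was not tested.

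Aurkb had 9.97 CPM in Primary, 13.9 in Long-term dormant and 5.41 in Recurrent. With the 3-count floor in place of 0 UMIs, its Dormant level was 3.28-fold below Primary and 4.56-fold below Long-term dormant. Plk1 had 5.29, 4.69 and 1.38 CPM in the same 3 libraries, 1.74-fold above that floor in Primary. Ube2c had 21.1, 6.08, 50.5 and 9.09 CPM, Ccnb2 22.5, 17.2, 40.4 and 10.8 CPM, and Cenpa 70.1, 53.7, 110 and 41.8 CPM in the 4 libraries. Each of these 3 was highest in Long-term dormant. Of the S-phase genes, Mcm5 had 17.9, 7.10, 37.5 and 16.9 CPM and Mcm6 17.6, 4.06, 33.5 and 16.8 CPM, the Dormant values resting on 7 and 4 UMIs. Tyms, which makes thymidylate, had 13.4, 2.03, 14.1 and 7.36 CPM, and Gins2 19.1, 4.06, 24.6 and 19.2 CPM. Pcna was again apart, with 109, 143, 143 and 133 CPM, within 2-fold in all 4 comparisons. The marking genes were all highest in Long-term dormant and lowest in Dormant. Mki67 had 16.8, 9.12, 35.5 and 18.8 CPM, Top2a 28.9, 11.2, 65.5 and 17.7 CPM, Cdk1 21, 8.11, 27.9 and 11.2 CPM, and Birc5 49.3, 9.12, 76.9 and 26.2 CPM. In Recurrent against Primary Mki67 did not go down with the mitosis genes (log2 0.16), while Top2a, Cdk1 and Birc5 were lower.

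Recurrent macrophages had lower mitosis genes than Primary macrophages at like S-phase levels over the whole class. Of the 40 genes 10 were lower and 0 higher, where 2.19% of 10199 genes were lower and 4.1% higher; all 10 were mitosis genes (10 of 18, median log2 -1.05) and 0 of 16 S-phase genes were among them (median -0.07). Ube2c was at -1.21 (-1.60 to -0.83) and Plk1 at -1.89 (-2.98 to -1.01). Both large clusters had the lower mitosis level: cluster 3 (Il1a, C1qc) had 214 CPM of mitosis genes in Primary and 130 in Recurrent, and cluster 8 (Mmp12, Arg1) 307 and 118 CPM. The S-phase level of cluster 3 was higher in Recurrent (306 CPM, 293 to 320) than in Primary (254 CPM, 240 to 268). In cluster 8 it was 324 CPM in Primary and 309 in Recurrent. Dormant cells in cluster 8 had 76.5 CPM of mitosis genes (55 cells), and cluster 2 (Retnla, Ccl6, Mrc1), which held nearly all Long-term dormant cells, had 197, 153, 388 and 126 CPM in the 4 libraries. The 9 T cell markers summed to 203 CPM in Dormant macrophages against 25.3 to 30.7 in the others. The 13 epithelial markers summed to 93.3, 76.0, 14.1 and 156 CPM in Primary, Dormant, Long-term dormant and Recurrent macrophages. The eGFP transcript was seen in 10.4% of Primary and 18.2% of Recurrent cells of cluster 3. In cluster 8 it was seen in 12.8% and 21.3%. The part of this RNA in the macrophage results was not tested.

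**Figure D5:**
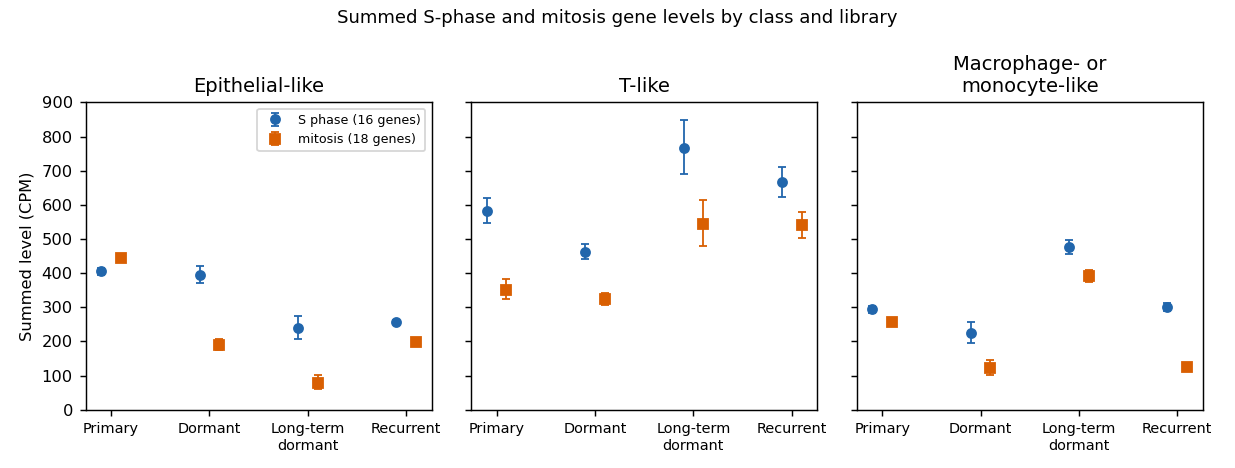
Summed level (y axis, CPM) of the 16 S-phase genes (blue circles) and 18 mitosis genes (orange squares) by library (x axis) in the 3 classes, with 95% exact Poisson intervals. In epithelial-like cells mitosis genes are at 445 CPM in Primary and 190 in Dormant while S-phase genes are at 405 and 396, and in macrophage- or monocyte-like cells they are 257 in Primary and 127 in Recurrent.

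The balance of the phases, taken as log2 of summed S-phase over summed mitosis UMIs, put these differences on 1 scale. In epithelial-like cells it was -0.13 in Primary, 1.06 in Dormant, 1.58 in the Long-term dormant library and 0.38 in Recurrent, so only Primary had more mitosis than S-phase UMIs. T-like cells had 0.73, 0.52, 0.49 and 0.30, and macrophage- or monocyte-like cells 0.19, 0.88, 0.29 and 1.25. Cells that did not count as cycling carried more S-phase than mitosis UMIs in every class and library, with balances between 1.45 and 2.71. The balance over all cells thus also depends on how many cells cycle. The marking genes divide cycling from other cells, so the balance within either group can follow in part from that rule. Among cycling cells alone the epithelial-like balance was -0.76 in Primary, 0.21 in Dormant and -0.08 in Recurrent, in the same order as for all cells. In cycling macrophages it was -0.63 in Primary and -0.08 in Recurrent, again higher in Recurrent, but -1.18 in the 5 cycling Dormant cells, so the Dormant difference turned there. Of the thinned cycling cells, 46 of 69 Primary and 19 of 31 Recurrent epithelial-like cells had more mitosis than S-phase UMIs, and 18 of 21 Primary and 3 of 12 Recurrent macrophages; many cells differ by at most 1 UMI (15 of the 69 and 7 of the 12). Mitosis UMIs came mostly from cycling cells (85.7% in Primary epithelial-like and 66.9% in Dormant T-like cells), S-phase UMIs less so (55.6% and 31.8%). These cells, taken without thinning, held 20.2% and 11.1% of all UMIs of the class. The marking genes chose them, so the split between the lists can follow from that rule and is no finding about phase.

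Hmgb2 and Stmn1 were abundant in all 3 classes. Hmgb2, a chromatin protein, had 330, 444, 170 and 138 CPM in Primary, Dormant, Long-term dormant and Recurrent epithelial-like cells, 726, 740, 890 and 948 CPM in T-like cells and 287, 299, 360 and 186 CPM in macrophage- or monocyte-like cells. Stmn1, which destabilizes microtubules, had 278, 241, 100 and 155 CPM, 262, 116, 247 and 395 CPM, and 96.0, 52.7, 196 and 68.9 CPM. Stmn1 was lowest in Dormant in T-like and macrophage- or monocyte-like cells, and Hmgb2 was not.

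Other cell cycle genes that the 40 do not include were counted in the same way. In epithelial-like cells 9 of 32 further mitosis genes were lower and 1 higher in Dormant against Primary (median -0.63), 2 of 22 further S-phase genes were lower and 2 higher (median -0.06), and of 11 G1 regulators 0 were lower and 1 higher; over all genes 9.98% were lower and 13% higher, so the S-phase and G1 counts lie near that background. Cdc25c, the phosphatase that activates Cdk1, had 7.68, 1.48, 0 and 1.96 CPM in Primary, Dormant, Long-term dormant and Recurrent. Slbp, which binds histone mRNA, had 58.7, 207, 52.6 and 56.5 CPM, and the G1 cyclin Ccnd2 had 25.8, 107, 25.7 and 1.57 CPM; both were highest in Dormant. Ccnd1, another G1 cyclin, had 225, 275, 113 and 50.2 CPM, and Myc had 45.6, 82.4, 58.7 and 18.4 CPM, so these G1 genes were lowest in Recurrent. E2f8 had 3.87, 1.11, 2.45 and 2.73 CPM and Spc25 2.04, 0.369, 0 and 1.22 CPM, the Dormant values resting on 3 UMIs and 1 UMI.

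In T-like cells 9 of 20 further S-phase genes were lower in Dormant than in Primary and 0 higher, and 11 of 20 higher in Recurrent than in Dormant; further mitosis genes were 2 lower and 1 higher of 21 in Dormant against Primary. Over all genes 8.85% were lower in the first comparison and 9.16% higher in the other, so the mitosis count is near the background. Cdk6, a G1 kinase, had 222, 53.8, 103 and 194 CPM in Primary, Dormant, Long-term dormant and Recurrent T-like cells, and the midbody kinesin Kif23 8.84, 24.8, 33.5 and 13.7 CPM. Cdc45 and Kif22 were lower in Dormant (3.73 and 3.20 CPM against 8.84 and 10.0 in Primary), Myc had 24.2, 13.6, 8.37 and 5.78 CPM, and Ccnd1 stayed between 3.54 and 4.80 CPM. In macrophage- or monocyte-like cells 16 of 27 further mitosis genes were lower in Dormant than in Primary, 23 of 25 higher in Long-term dormant than in Dormant, and 8 of 30 lower in Recurrent than in Primary; 0 of 22 further S-phase genes were 2-fold lower or higher in Recurrent than in Primary. Over all genes the shares for these 3 comparisons were 9.83% lower, 12.8% higher and 2.19% lower. With the floor in place of 0 UMIs the first 2 counts were 12 and 21. Cdca3 had 19.2, 2.03, 34.4 and 12.0 CPM, Ccnd1 45.0, 14.2, 38.7 and 42.3 CPM, and Myc, against the rest, 11.8, 21.3, 8.71 and 15.5 CPM. Rad51ap1, Pola1 and Ect2 had no UMI in Dormant macrophages, where Primary had 5.70, 4.98 and 3.56 CPM.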

How the data were processed

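Single-cell 3′ libraries (10x Chromium, kit version 2) of 4 tumour stages were analysed, 1 library per stage. The authors deposited raw UMI counts per gene and cell, with no normalization seen in the values; the submitters' processing notes name Cell Ranger 3.1.0, FastQC and mm10, and filters before deposit are not given in the sources used here. The 2 antibody-treated libraries, made with another kit version, were not used. The 40 genes and all lists were chosen with earlier results of these data known. The cell filter was 500 UMIs, 200 genes and a mitochondrial share of no more than 20%, predicted doublets were removed (Scrublet in scanpy 1.11.5), and cells were clustered (Leiden, resolution 1.0, 2000 variable genes, 30 components) with 105 cell cycle genes left out. All 25 clusters were named from marker lists (at least 3 detected markers), giving 9 classes.

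UMIs were summed per class and library and scaled to CPM; ratios used a prior of 0.5 counts and exact conditional intervals (95%), CPM exact Poisson intervals, and shares exact binomial (Clopper-Pearson) intervals, after thinning cells to 1500 UMIs. Intervals cover counting error only. A call meant at least 2-fold with at least 20 UMIs over both libraries. Cells are not replicates, so no p-value was computed. Named in each class were the S-phase and mitosis genes with the most UMIs, those with the largest Dormant to Primary ratio, Mki67, Top2a, Cdk1, Birc5, Hmgb2 and Stmn1, and up to 2 further genes per list with the largest ratio plus Ccnd1; 1 gene that this rule names is not reported here. Alternatives included TMM factors (edgeR 4.0.16), other cell filters, resolutions and thinning depths. The ratio, interval and thinning steps were tested on simulated data. Clusters may differ from those of the study, since they were rebuilt here.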

Additional observations from a re-analysis of the deposited data

Results flagged for a closer look

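The cycling share moved in opposite directions in 2 classes between the Recurrent and Primary libraries. On the log2 scale the thinned Recurrent to Primary ratio was -1.49 in epithelial-like cells and 1.63 in T-like cells, a lower share in epithelial-like and a higher share in T-like cells of the Recurrent library. The epithelial-like cells of the 2 libraries lay mostly in different clusters, and within cluster 0 the thinned shares were 1.49% in Primary and 1.28% in Recurrent, and within cluster 4 they were 4.19% and 3.13%, with overlapping intervals. The T-like value was 1.02 in a second random draw of the thinning. Each direction rests on 1 library per stage, and the difference between the classes was not tested.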

How the results depend on the processing

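Each stage was 1 library, so nothing here measures the spread between tumours, and the Dormant and Long-term dormant epithelial-like and the Dormant macrophage classes hold few cells and few mitosis UMIs. No paired analysis was possible because each stage has 1 library. Of 171 alternatives for the 12 cycling share ratios 163 left the value within its counting interval, and no ratio whose interval excludes 0 changed sign. Ratios whose interval spans 0 did: Long-term dormant against Dormant in epithelial-like cells (0.98) was -1.34 without thinning, and Recurrent against Dormant (0.029) was -0.058 when thinned to 1000 UMIs and -0.17 with eGFP-positive cells only. For the phase balance 100 of 131 stayed within the interval and 7 reversed a difference whose interval excludes 0, and for the counts of genes lower and higher 147 and 142 of 167 stayed within 1.5 times. Where the cause of a change is not named, the cause was not tested.

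The cycling share ratios that moved, on the log2 scale, were Recurrent against Primary in epithelial-like cells (-2.43 when thinned to 1000 UMIs, -0.55 without thinning) and the following in T-like cells. Requiring 3 of the 4 genes gave -2.60 for Dormant against Primary, 4.50 for Long-term dormant against Dormant and 4.31 for Recurrent against Dormant. Without thinning, Long-term dormant against Dormant was 1.48. Recurrent against Primary was 0.38 with at least 1 of the 4 genes and 0.43 with Nusap1, Tpx2, Cenpf and Ube2c in their place.

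The difference in phase balance changed most when only cycling cells were used, which removes the S-phase UMIs of other cells. In epithelial-like cells it was then 0.96 for Dormant against Primary, 1.41 for Long-term dormant against Dormant, -0.29 for Recurrent against Dormant and 0.68 for Recurrent against Primary. In T-like cells it was -0.68 for Dormant against Primary, 0.40 for Long-term dormant against Dormant and, reversed, 0.37 for Recurrent against Dormant. In macrophages it reversed to -0.56 for Dormant against Primary and to 0.74 for Long-term dormant against Dormant, and was 1.10 for Recurrent against Dormant and 0.54 for Recurrent against Primary. Giving each cell equal weight reversed Long-term dormant against Dormant in epithelial-like cells (-0.88), Dormant against Primary in T-like cells (0.55) and Recurrent against Primary in T-like cells (0.10), and gave -0.45 for Recurrent against Dormant in T-like cells, 0.32 for Dormant against Primary and 0.93 for Recurrent against Primary in macrophages. In macrophages, Dormant against Primary was 1.06 with predicted doublets kept, 0.25 at resolution 0.5, 0.19 with cell cycle genes kept in clustering and 0.29 without the most abundant gene of each list. Without those genes Long-term dormant against Dormant was -0.018 and Recurrent against Dormant 0.71; the latter was 0.86 at resolution 0.5 and 0.88 with cell cycle genes kept.

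Of the counts of genes, requiring the whole interval beyond 2-fold left, in epithelial-like cells, 6 lower for Dormant against Primary, 1 for Long-term dormant against Dormant, 2 for Recurrent against Dormant and 12 for Recurrent against Primary. In T-like cells it left 0 lower for Dormant against Primary, 3 higher for Long-term dormant against Dormant, 9 for Recurrent against Dormant and 0 for Recurrent against Primary. In macrophages it left 4 lower for Dormant against Primary, 14 higher for Long-term dormant against Dormant, 0 higher for Recurrent against Dormant and 3 lower for Recurrent against Primary. A minimum of 100 UMIs, which tests fewer genes, gave 4 lower for Long-term dormant against Dormant in epithelial-like cells. In T-like cells it gave 3 lower for Dormant against Primary and 7, 8 and 0 higher for the other 3 comparisons in turn, and in macrophages 19 and 6 higher against Dormant. Equal cluster weight in epithelial-like cells gave 0 lower and 24 higher for Dormant against Primary, 5 lower and 1 higher for Long-term dormant against Dormant, 25 lower for Recurrent against Dormant and 7 lower for Recurrent against Primary. In T-like cells it gave 1 lower and 7 higher for Dormant against Primary and 18 higher for Recurrent against Primary.

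Recurrent against Dormant in epithelial-like cells had 3 lower and 3 higher with doublets removed at a fixed rate, 1 higher at resolution 0.5, 1 higher at resolution 2.0 and 2 higher with TMM factors. In T-like cells, resolution 0.5 gave 1 lower and 5 higher for Dormant against Primary and 18 higher for Recurrent against Primary, which was 3 at resolution 2.0 and 3 with a stricter cell filter; TMM factors left 13 higher for Long-term dormant against Dormant. In macrophages, Recurrent against Dormant had 2 lower at resolution 0.5 and 4 lower with cell cycle genes kept. At resolution 2.0, with the stricter filter and with cell cycle genes kept, 1 or 2 clusters held more top markers of another class than of their own.

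A pair of alternatives was chosen after seeing the data. With cells holding at least 2 T cell markers left out, Long-term dormant against Dormant in epithelial-like cells had 9 lower, and Recurrent against Dormant 3 lower and 2 higher with a phase difference of -0.85. In macrophages the phase difference was then 1.45 for Dormant against Primary, -1.29 for Long-term dormant against Dormant and, reversed, -0.39 for Recurrent against Dormant. Without the cell of each library with the most mitosis UMIs, the epithelial-like phase difference was 1.58 for Dormant against Primary and -1.07 for Recurrent against Dormant, where 4 genes were then higher.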

Other observations

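Classes other than the 3 described also held cycling cells. NK-like cells cycled in 18 of 106 Long-term dormant cells after thinning (17.0%, interval 10.4 to 25.5), against 3 of 52 in Primary (5.77%), 5 of 463 in Dormant (1.08%) and 1 of 61 in Recurrent (1.64%), and their summed mitosis level was 705 CPM against 401, 181 and 107 CPM. Without thinning the NK-like shares were 17.2%, 8.20%, 2.69% and 4.55% in the same order. Dendritic-like cells cycled in 3.26% of Primary, 1.09% of Dormant, 3.48% of Long-term dormant and 2.90% of Recurrent cells, with mitosis levels of 398, 233, 494 and 170 CPM.

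Plasma-like cells were numerous only in the Dormant library, where 10 of 193 cycled (5.18%, 2.51 to 9.32) with summed levels of 518 CPM for S-phase and 400 CPM for mitosis genes. Fibroblast-like cells cycled in 29 of 2605 Long-term dormant cells (1.11%, 0.747 to 1.59), with a mitosis level of 182 CPM against 26.7 CPM in Dormant and 36.3 CPM in Recurrent, while their S-phase level was 176, 170 and 106 CPM.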
